A study of Homo sapiens with 6 samples.

Results

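The histone acetyltransferase genes KAT2A, KAT2B, KAT5, KAT6A, KAT6B, KAT7, KAT8, CREBBP, EP300 and HAT1 were followed in PC3 cells given miR-130a. These genes were selected by name as one enzyme family, and a gene was represented by the array row, carrying that symbol alone, with the highest mean over the 6 arrays. Of the 10 genes, 9 had such a row among 22465 genes in all, and each of the 9 had a single row, so the row means decided nothing. The row of EP300 is shared with a microRNA symbol and is not analysed here. The family was proposed, with KAT2B in front, when earlier results of these data were known, so the change of KAT2B is described without a test.

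PC3 is an established human line from a bone metastasis of prostate cancer. The 2 arms were PC3 cells transiently transfected with a synthetic pre-miR-130a precursor (3 arrays) and PC3 cells transfected with a negative control precursor, miR-NC (3 arrays), from experiments described as independent. Both arms therefore share the transfection itself and 1 cell line, the labels give no dose and no time after transfection, and the precursor supplies miR-130a from outside the cell. The comparison asks how transcript levels differ when miR-130a is supplied.

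Histone acetyltransferases move an acetyl group from acetyl-CoA to lysines of histones and of many other proteins, and acetylated histones mark active promoters and enhancers. KAT2A (GCN5) and KAT2B (PCAF) are alternative catalytic subunits of the SAGA and ATAC coactivator complexes. CREBBP (CBP) and its paralog EP300 (p300) are coactivators that bind many transcription factors, the androgen receptor among them in prostate cells. KAT5, KAT6A, KAT6B, KAT7 and KAT8 form the MYST family, and HAT1 acetylates newly made histone H4 before it is deposited on DNA.

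KAT2B and CREBBP were higher with miR-130a, and their promoters are shown with that of KAT2A, the paralog of KAT2B that did not pass the test. The 250 bases before 1 transcription start per gene were taken from RefSeq (GRCh38.p14) and are written 5′ to 3′ on the gene's strand. An entry was used for 7 of the 9 genes, with none for KAT6A, whose chromosome was left out, or for KAT8. CREBBP had 2 listed starts, and the one nearest the gene's annotated 5′ end was used. Capitals mark GC boxes (GGGCGG) and cAMP response element half-sites (TGACG), each searched on both strands.
KAT2B, chr3:20040196-20040445, plus strand: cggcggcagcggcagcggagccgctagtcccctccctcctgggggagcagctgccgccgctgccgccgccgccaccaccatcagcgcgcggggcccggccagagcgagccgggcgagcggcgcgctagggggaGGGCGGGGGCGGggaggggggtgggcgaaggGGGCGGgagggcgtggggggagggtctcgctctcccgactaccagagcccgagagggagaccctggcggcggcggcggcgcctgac
CREBBP, chr16:3880714-3880963, minus strand: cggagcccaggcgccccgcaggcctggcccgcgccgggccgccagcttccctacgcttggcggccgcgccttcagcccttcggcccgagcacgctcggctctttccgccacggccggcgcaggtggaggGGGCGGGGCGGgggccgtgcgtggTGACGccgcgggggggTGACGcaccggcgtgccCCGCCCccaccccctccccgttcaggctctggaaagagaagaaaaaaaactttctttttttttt
KAT2A, chr17:42121368-42121617, minus strand: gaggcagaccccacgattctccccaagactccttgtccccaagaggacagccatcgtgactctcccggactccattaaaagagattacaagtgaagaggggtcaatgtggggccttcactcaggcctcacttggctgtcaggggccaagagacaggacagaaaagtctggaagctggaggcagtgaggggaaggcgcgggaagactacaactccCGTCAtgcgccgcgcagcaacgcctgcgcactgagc
The KAT2B stretch is 80.8% G and C, that of CREBBP 72.4% and that of KAT2A 58.8%, against a median of 58.0% over 35116 promoter stretches of the same length. KAT2B and CREBBP each hold 3 GC boxes and KAT2A holds 0, while 42.6% of all the stretches hold at least 1. The half-site occurs 2 times before CREBBP, 1 time before KAT2A and not before KAT2B, and in 21.2% of all stretches. The full cAMP response element (TGACGTCA; 1.65% of all stretches), which contains the half-site, the ATF4 site TGATGNAA (3.14%), the AP-1 site TGANTCA (6.57%), the CCAAT box (CCAAT; 32.0%) and the E-box CACGTG (6.34%) were found in none of these 3 stretches. GC boxes on one strand can overlap each other, and a match is a match of letters only. Of the stretches not shown, KAT6B, KAT5, HAT1 and KAT7 were 68.0%, 66.4%, 64.0% and 56.4% G and C. HAT1 held 1 GC box and the other genes not shown held 0. The half-site occurred 3 times before KAT5, 2 times each before HAT1 and KAT7, and 0 times before KAT6B. A link between these letters and the changes was not tested.

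Negative control 3 stood apart from the other arrays before any gene was considered. It correlated with negative controls 1 and 2 at r = 0.992 over 67528 rows, whereas those 2 correlated at 0.996. The median of negative control 3 over these rows was the highest of the 6 arrays, 5.08 beside 4.96 to 5.00 on the others. Yet this array was the lowest of the 6 for 20.2% of all genes, and for 5 of the 9 acetyltransferase genes. Values without it are given where they moved, and values of single arrays are given in the order 1, 2 and 3 within each arm. As a check of the line, the mean log2 level of 8 epithelial markers lay between 8.13 and 8.18 on control arrays and between 8.20 and 8.25 on miR-130a arrays, and the keratin gene KRT18 alone rose among them (1.31-fold, limma adjusted p = 0.018), with CDH1 (difference 0.29, adjusted p = 0.0614) and KRT19 (-0.18, adjusted p = 0.141) not passing. The call of KRT18 was lost on leaving out control array 1 (adjusted p = 0.0605) or, in the treated arm, array 1 (0.0766), array 2 (0.0925) or array 3 (0.101), and when all rows were tested (0.0887), and without control array 1 CDH1 passed (0.0335). The means of 4 measured markers each of androgen-responsive luminal cells, leukocytes, endothelium and fibroblasts ranged from 4.49 to 5.45. The median of all rows is 5.00. Over the 6 arrays, single markers ran from 2.72 (PTPRC) to 6.89 (COL1A1). Above the median lay 3 luminal, 2 leukocyte, 3 endothelial and 3 fibroblast markers. Of these 16 genes ACP3 rose from 4.70 to 5.00 and PDGFRA from 5.50 to 5.89, and 14 did not pass, among them KLK2, TMPRSS2, CD14, LAPTM5, PECAM1, TEK, COL1A1 and DCN with differences between -0.12 and 0.14. The call of ACP3 was lost on leaving out control array 1 (adjusted p = 0.0541) or, in the treated arm, array 1 (0.0984), array 2 (0.0832) or array 3 (0.0870), and when all rows were tested (0.0900). That of PDGFRA was lost without miR-130a 1 (0.0507), and COL1A1 passed without negative control 3 (0.0227). The part of these markers in the results was not tested. The KRT18 locus overlaps the protein-coding gene KRT8 in the annotation.

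KAT2B was the acetyltransferase gene that differed most between the arms. Its log2 level was 7.48, 7.47 and 7.27 in the control arm and 8.33, 8.37 and 8.37 in the miR-130a arm. The arms did not overlap, the miR-130a arrays lay within 0.05 of each other, and negative control 3 was the lowest of the controls. The means were 7.41 ± 0.12 and 8.36 ± 0.03 (SD, n = 3 per arm), a 1.93-fold higher level with miR-130a (log2 difference 0.95, SE 0.0671). In RNA of whole cultures, a change in the number of cells with a transcript and a change in transcript per cell cannot be told apart. Without negative control 3 the difference was 0.88, and over 14 other settings it lay between 0.88 and 0.99. The KAT2B locus contains the gene of the microRNA MIR3135A, and how far the row reads that gene is not known here.

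CREBBP rose with miR-130a. It read 8.52, 8.51 and 8.42 in the control arm and 8.94, 8.87 and 8.89 in the miR-130a arm. Every miR-130a array was above every control. The rise was 1.33-fold, from 8.49 ± 0.05 to 8.90 ± 0.03 (SD, n = 3 per arm; difference 0.41, SE 0.0523, limma adjusted p = 0.00665 over 22465 genes). Its call was lost without miR-130a 1 (difference 0.39, adjusted p = 0.0548) and kept in the other 13 settings. There limma's adjusted p ran from 0.000142 (array weights) to 0.0483 (without miR-130a 3). Together, KAT2B and CREBBP made 2 of 9 measured members past an adjusted p of 0.05, both upwards, beside 4.23% of all genes (2.48% upwards and 1.74% downwards). No member passed downwards. Since the members were chosen, and KAT2B was named, with earlier results known, nothing is read from the count of 2 of 9. The adjusted p of CREBBP carries the same limit.

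**Figure D1:**
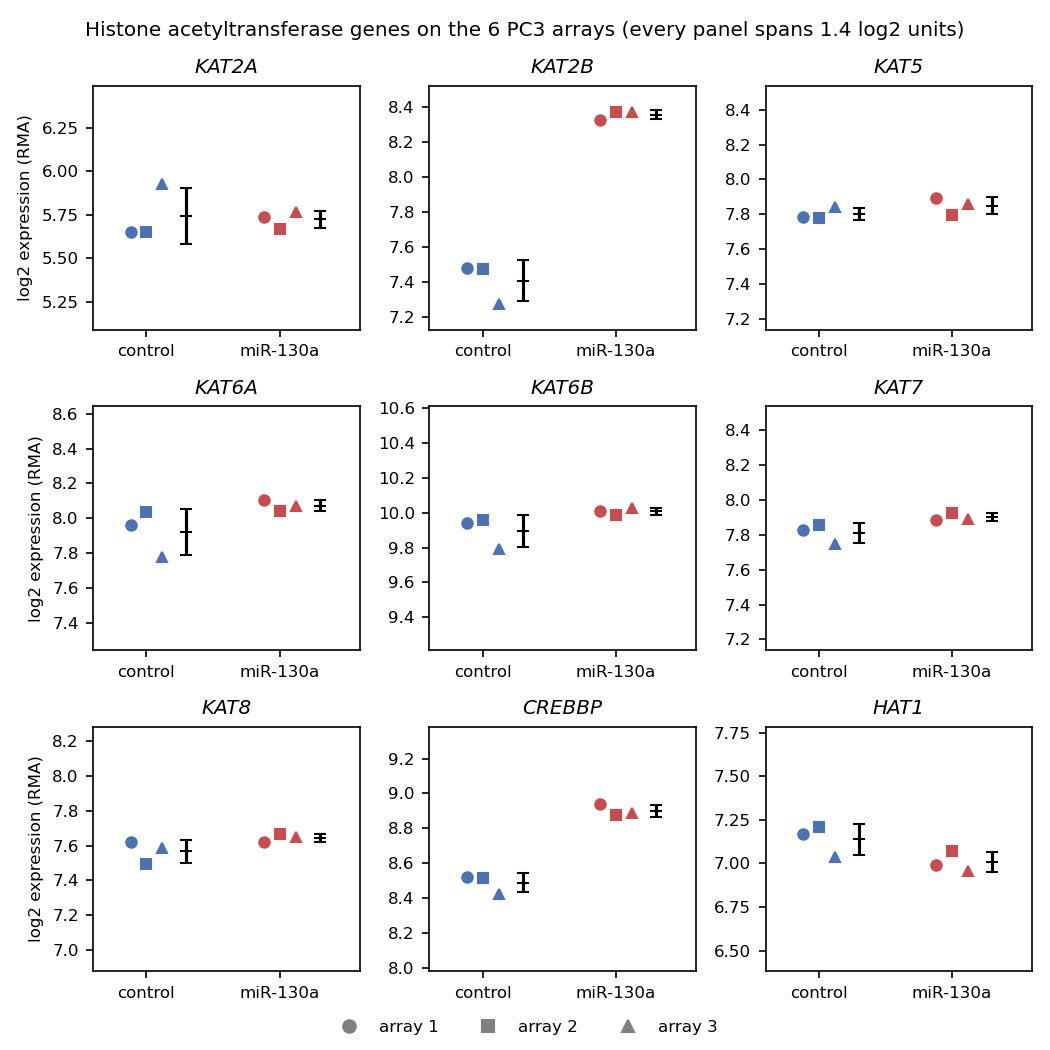
Log2 expression of the 9 measured acetyltransferase genes on each array (circle, square and triangle for arrays 1, 2 and 3 of an arm; blue, negative control; red, miR-130a), with the mean and SD of each arm in black; every panel spans the same number of log2 units around its own centre. KAT2B rises from 7.41 to 8.36 and CREBBP from 8.49 to 8.90, and the triangle of negative control 3 is the lowest point for KAT2B, CREBBP, KAT6A, KAT6B and KAT7.

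KAT2A, the paralog of KAT2B, did not pass. Its level was 5.65, 5.65 and 5.93 in the control arm and 5.74, 5.67 and 5.77 in the miR-130a arm. The arms overlapped, because negative control 3 was above all the other arrays. KAT2A was the dimmest of the measured members (mean log2 level 5.73, beside a median of 5.00 over all rows). How fully a row this dim shows a change was not tested. The difference was -0.02 (95% interval -0.21 to 0.17; adjusted p = 0.973, limma), so a change as large as that of KAT2B lies outside the interval. Its sign turned without negative control 3 (0.07), without miR-130a 2 (0.0086), with median centring (0.0021) and with array weights (0.07). The KAT2B level minus the KAT2A level on the same array was 1.83, 1.82 and 1.34 in the controls and 2.59, 2.70 and 2.60 with miR-130a. The pair therefore changed unequally by 0.97 on the log2 scale, with no overlap between the arms, and this is given as a description because KAT2B was chosen.

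The MYST genes did not pass the test, and their differences were all above 0. KAT6A (MOZ), a histone H3 acetyltransferase rearranged in leukaemia, read 7.96, 8.03 and 7.78 on the controls and 8.11, 8.04 and 8.07 with miR-130a. KAT6B (MORF), its paralog, read 9.94, 9.96 and 9.79 on the controls and 10.01, 9.99 and 10.03 with miR-130a. In both genes the arms just failed to overlap and negative control 3 was the low array. The differences were 0.15 (95% interval -0.02 to 0.32; adjusted p = 0.379) for KAT6A and 0.11 (-0.03 to 0.25; adjusted p = 0.427) for KAT6B, by limma. The within-array difference between KAT6A and KAT6B moved by 0.04 (exact permutation test over the 6 arrays, two-sided, p = 0.4; adjusted p = 0.4 over the 2 pairs computed). The smallest p that 3 against 3 arrays allow is 0.1, so this test could not pass the threshold and nothing is read from it.

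KAT7 (HBO1), which acetylates histones H3 and H4 and is known for its part in licensing replication origins, differed by 0.09 (-0.03 to 0.21; adjusted p = 0.479). It too had arms that did not overlap, from 7.75 to 7.86 in controls and from 7.89 to 7.93 with miR-130a. The differences of KAT6A, KAT6B and KAT7 were 0.08, 0.06 and 0.06 without negative control 3, so those of the 3 genes were 1.97, 1.87 and 1.53 times as large with that array as without it. KAT8 (MOF), the histone H4 acetyltransferase of the MSL and NSL complexes, ranged from 7.49 to 7.62 in controls and from 7.62 to 7.67 with miR-130a (difference 0.08, -0.05 to 0.20; adjusted p = 0.608). KAT5 (TIP60), the catalytic subunit of the NuA4 complex that acts at DNA breaks, ranged from 7.78 to 7.84 and from 7.80 to 7.89 (difference 0.05, -0.07 to 0.17; adjusted p = 0.799). The loci of KAT5 and KAT7 overlap the protein-coding genes RNASEH2C and FAM117A in the annotation.

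HAT1 was the other member with a difference below 0. It read 7.17, 7.21 and 7.03 in the control arm and 6.99, 7.07 and 6.96 in the miR-130a arm. The arms overlapped through negative control 3. The difference was -0.13 (95% interval -0.28 to 0.02; adjusted p = 0.372, limma), and -0.18 without negative control 3 (adjusted p = 0.0657).

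Taking the family as a whole, 7 of the 9 differences were above 0 and 2 below, with a median of 0.09, beside -0.01 over all genes. The arms did not overlap for 5 of the 9, all higher with miR-130a, beside 23.6% of all genes in either direction, 11.7% upwards and 11.9% downwards. In the same 5 genes negative control 3 was the lowest of the 6 arrays, so their arms stay apart without that array too. Its part in the size of their differences was not tested beyond the values without it. Controls spread more than miR-130a arrays for 8 of the 9 members and for 80.2% of all genes.

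**Figure D2:**
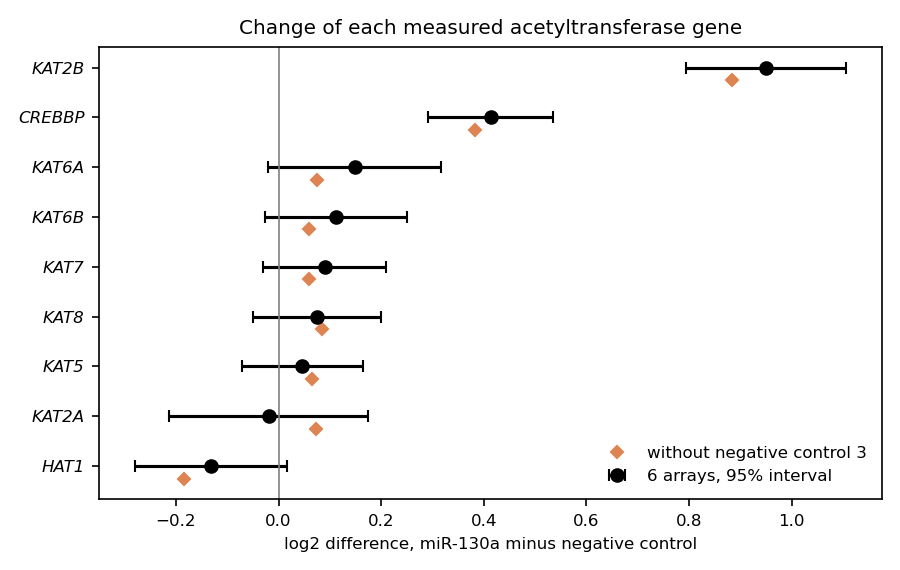
Log2 difference (miR-130a minus negative control) of each measured acetyltransferase gene from the 6 arrays (black points, with 95% intervals from limma) and without negative control 3 (orange diamonds). KAT2B, whose bar is given as error and not as a test, lies at 0.95, the interval of CREBBP runs from 0.29 to 0.54, those of the other 7 genes include 0, and the diamonds of KAT6A, KAT6B and KAT7 lie at 0.06 to 0.08.

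**Figure D3:**
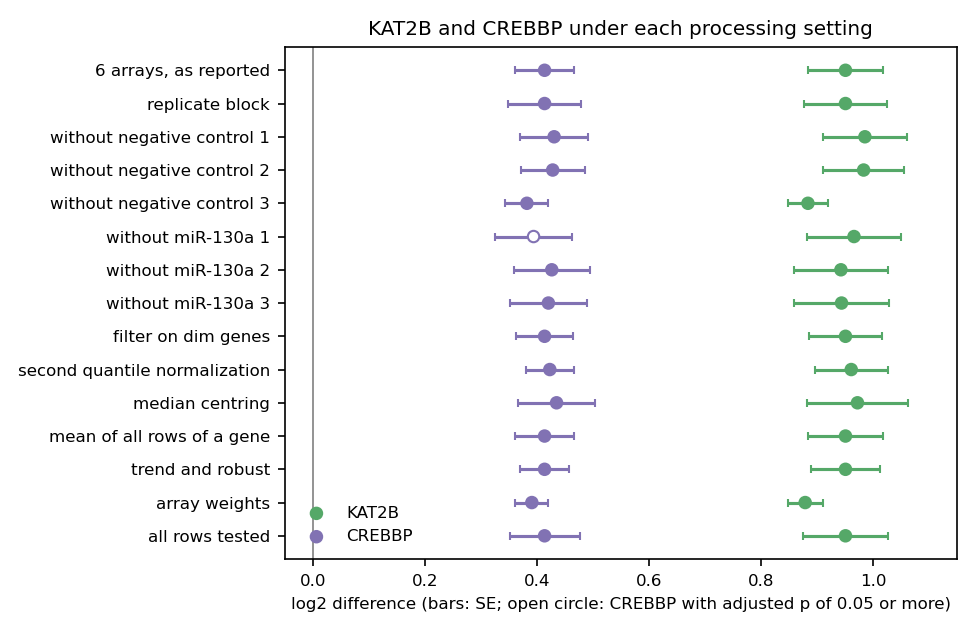
Log2 difference of KAT2B (green) and CREBBP (purple) with 6 arrays and under 14 other settings; bars are limma's SE, and for CREBBP an open circle marks an adjusted p of 0.05 or more, while KAT2B carries no such mark. KAT2B lies between 0.88 and 0.99 and CREBBP between 0.38 and 0.44, with 1 open circle, without miR-130a 1.

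The 5 genes whose pattern over the 6 arrays was most like that of KAT2B were HBEGF, E2F7, SLITRK6, CLDN1 and VAV3. Likeness was the root mean square difference between the gene's and KAT2B's log2 values after each was centred on its own mean, among 16088 genes above the median level of all rows. HBEGF, an EGF receptor ligand, differed by 0.0561, with 7.17, 7.10 and 7.09 on controls and 8.04, 8.07 and 8.07 with miR-130a. E2F7, a repressor of the E2F family, differed by 0.0601, SLITRK6, a neuronal membrane protein, by 0.0613, CLDN1, a tight junction protein, by 0.0715, and VAV3 by 0.0772. All 5 were higher with miR-130a without overlap of the arms, by 1.81-fold (E2F7) to 2.12-fold (VAV3). They were picked for that likeness, so no test is given.

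The enzymes work within multi-protein complexes, and most of the subunits that carry them did not pass the test. Over 10 lists of partners, opposing enzymes, readers and genes linked to substrate supply, 156 of 164 distinct genes were measured. Of these, 5 rose, 4 fell and 147 did not pass. That is 5.77% of the genes, beside 4.23% of all genes, and their median difference was 0.02, beside -0.01 over all genes. The share lies near that of all genes, and the lists too were chosen with earlier results known.

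Of 29 subunits of SAGA and ATAC, the complexes of KAT2A and KAT2B, 1 fell and none rose (median difference 0.01). It was USP22, the histone deubiquitinase of SAGA, which read 9.28, 9.08 and 9.21 on controls and 8.76, 8.91 and 8.84 with miR-130a, with no overlap. Its fall was 1.28-fold (difference -0.35, SE 0.0701, limma adjusted p = 0.0352). The USP22 locus overlaps the protein-coding gene LOC124900389 in the annotation. TAF10, which SAGA shares with TFIID (-0.20, adjusted p = 0.102), and POLE4, also a subunit of DNA polymerase epsilon (-0.15, adjusted p = 0.133), did not pass. The call of USP22 was lost on leaving out negative control 1 (adjusted p = 0.125) or, in the treated arm, array 1 (0.167), array 2 (0.0855) or array 3 (0.152), with median centring (0.0755) and when all rows were tested (0.145). On the arrays without negative control 3, where 4.88% of all genes passed upwards and 5.14% downwards, 4 of the list fell.

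Of 18 subunits of NuA4, the KAT5 complex, none passed in limma's test. ING3, a reader of methylated histone H3, was 0.39 higher (adjusted p = 0.0605) and the actin-like subunit ACTL6A differed by -0.20 (adjusted p = 0.0755). Of 9 subunits that go with KAT6A, KAT6B and KAT7, none passed either. The 2 with the smallest p were the scaffold genes JADE2 (difference 0.17, adjusted p = 0.189) and BRPF3 (0.11, adjusted p = 0.296). With negative control 3 left out, 1 of the NuA4 list rose, 1 fell, and 1 of the KAT6A, KAT6B and KAT7 partners rose.

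Of 11 subunits of MSL and NSL, the complexes of KAT8, PHF20 fell and 10 did not pass (median difference 0.11). PHF20, a Tudor-domain reader of NSL, read 7.09, 7.02 and 6.90 on controls and 6.57, 6.57 and 6.56 with miR-130a. All controls were above all miR-130a arrays, and the fall was 1.36-fold (difference -0.44, SE 0.0613, limma adjusted p = 0.00971). MSL1 (0.17, adjusted p = 0.141) and MSL3 (0.15, adjusted p = 0.195) did not pass. The call of PHF20 was lost on leaving out array 1 (adjusted p = 0.0619), 2 (0.0508) or 3 (0.0645) of the treated arm, and when all rows were tested (0.0536).

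Among 8 measured partners of HAT1 and histone chaperones, ASF1B fell and 7 did not pass (median difference -0.06). ASF1B, the replication-linked chaperone of histones H3 and H4, read 8.57, 8.63 and 8.61 on controls and 8.21, 8.34 and 8.15 with miR-130a. The arms were well apart, and the fall was 1.29-fold (difference -0.37, SE 0.0619, limma adjusted p = 0.0191). NASP, another chaperone of these histones, differed by -0.18 (adjusted p = 0.141), and ASF1A by 0.17 (adjusted p = 0.401). The call of ASF1B was lost on leaving out array 1 (adjusted p = 0.0667) or 2 (0.0589) of the controls or array 1 (0.109) or 3 (0.107) of the treated arm, with median centring (0.0585) and when all rows were tested (0.0957).

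Of 13 measured partners of CREBBP and EP300, CITED2 rose and 12 did not pass (median difference 0.07). CITED2, which binds their CH1 domain and restrains hypoxia-inducible transcription, rose 1.19-fold, from 7.89 ± 0.04 to 8.14 ± 0.03 (SD, n = 3 per arm; limma adjusted p = 0.0336). CITED4, of the same family, was 0.40 higher (adjusted p = 0.0932) and the CREB coactivator CRTC3 0.15 higher (adjusted p = 0.183). The call of CITED2 was lost on leaving out control array 1 (adjusted p = 0.0818) or 2 (0.0746) or, in the treated arm, array 1 (0.156), array 2 (0.168) or array 3 (0.161), with median centring (0.0656) and when all rows were tested (0.170). Leaving out negative control 3 gave 2 rises.

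Of 13 further genes reported to encode acetyltransferases, ESCO2 fell and 12 did not pass (median difference 0.04). ESCO2, which acetylates cohesin and not histones, went from 8.13 ± 0.15 to 7.31 ± 0.06 (SD, n = 3 per arm), a difference of -0.82, and passed with any 1 array left out (highest adjusted p = 0.0239, limma). The circadian factor CLOCK differed by -0.28 (adjusted p = 0.0994) and ESCO1, the paralog of ESCO2, by 0.29 (adjusted p = 0.251). With negative control 3 left out, 2 of the list fell. The ESCO2 locus overlaps the protein-coding genes CCDC25 and PBK in the annotation.

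The HDAC and sirtuin families include the enzymes that remove acetyl groups from histones. These families were read from 18 genes, of which SIRT1 rose and 17 did not pass (median difference -0.01). SIRT1, an NAD-dependent deacetylase of histones and of factors such as p53, read 8.79, 8.89 and 8.65 on controls and 9.23, 9.22 and 9.24 with miR-130a. The arms did not overlap and the miR-130a arrays lay close together. The rise was 1.37-fold (difference 0.46, SE 0.0677, limma adjusted p = 0.0116). HDAC9 was 0.22 higher (adjusted p = 0.0552) and SIRT7 differed by -0.21 (adjusted p = 0.0641). The call of SIRT1 was lost on leaving out control array 1 (adjusted p = 0.0525) or, in the treated arm, array 1 (0.0705), array 2 (0.0568) or array 3 (0.0706), and when all rows were tested (0.0594). With negative control 3 left out, 2 of the list rose and 1 fell.

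Of 30 measured readers of acetyl-lysine, ZMYND8 rose and 29 did not pass (median difference 0.04). ZMYND8, a bromodomain protein that recruits the NuRD complex to damaged chromatin, rose 1.24-fold, from 8.25 ± 0.06 to 8.56 ± 0.02 (SD, n = 3 per arm; limma adjusted p = 0.0179). MLLT3 (0.23, adjusted p = 0.0981) and BRD2 (0.15, adjusted p = 0.132) did not pass. The call of ZMYND8 was lost on leaving out control array 1 (adjusted p = 0.0667) or, in the treated arm, array 1 (0.10), array 2 (0.0957) or array 3 (0.115), with median centring (0.0591) and when all rows were tested (0.103). With negative control 3 left out, 2 of the list rose and 4 fell.

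Of 10 genes linked to the supply of acetyl-CoA, the substrate of the enzymes, 2 rose and 8 did not pass (median difference 0.01). ACSS2, which makes acetyl-CoA from acetate in the cytosol and nucleus, read 8.22, 8.10 and 8.22 on controls and 8.82, 8.97 and 8.88 with miR-130a. The groups were far apart, and the rise was 1.63-fold (difference 0.71, SE 0.0615, limma adjusted p = 0.00197), past the threshold with any 1 array left out (highest adjusted p = 0.0181). ACLY, which makes acetyl-CoA from citrate, rose 1.22-fold, from 9.91 ± 0.07 to 10.19 ± 0.07 (SD, n = 3 per arm; adjusted p = 0.045). PDHX was 0.21 higher (adjusted p = 0.274) and citrate synthase (CS) differed by -0.07 (adjusted p = 0.642). The call of ACLY was kept without negative control 3 and lost on leaving out control array 1 (adjusted p = 0.0829) or 2 (0.103) or, in the treated arm, array 1 (0.141), array 2 (0.188) or array 3 (0.160), with median centring (0.082) and when all rows were tested (0.183). Both enzymes are also known targets of SREBP factors.

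**Figure D4:**
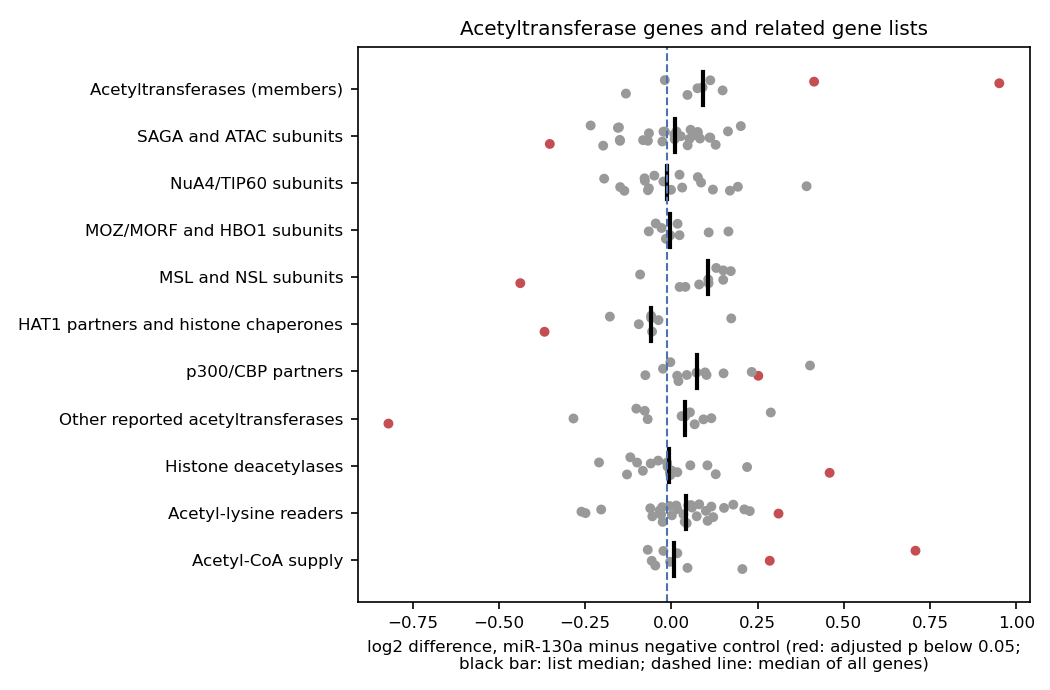
Log2 difference (miR-130a minus negative control, horizontal axis) of each measured gene in the acetyltransferase family and in 10 related lists; red points passed an adjusted p of 0.05, black bars are list medians and the dashed line is the median of all genes. KAT2B at 0.95 is the rightmost point, ESCO2 at -0.82 the leftmost, and the list medians lie between -0.06 and 0.11. KAT2B was chosen with its result known, so its red colour is not read as a test.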

How the data were processed

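Total RNA of 6 PC3 cultures was measured on Affymetrix arrays. The authors deposited log2 expression values that, per the submitters' processing notes, came from RMA in Affymetrix Expression Console; the log2 scale was inferred from the values, and no genome build is named in the sources used here. RMA compresses differences, so folds are those of the array, and the number of arrays limits precision. Of 67528 rows with values, 23781 carried 1 gene symbol, and symbols were updated through Entrez identifiers. The brightest row stood for each of 22465 genes. limma 3.58.1 (R 4.3.3; lmFit, eBayes) compared the arms in a two-sided test, and p was adjusted over all genes by Benjamini-Hochberg, with a threshold of 0.05. SE and intervals are limma's. The script was tested on simulated data.

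The members and lists were chosen with earlier results of these data known. Text names all members, in each list the genes past the threshold and the 2 with the smallest p that did not pass, and the 5 genes most like KAT2B. The planned pair of EP300 and CREBBP was not computed. Alternatives were a replicate block, leaving out each array, a filter on dim genes (mean above 5.00), renewed quantile normalization, centring of arrays on their medians, averaging a gene's rows, trend and robust options, array weights and all rows.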

Additional observations from a re-analysis of the deposited data

How the results depend on the processing

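CREBBP kept its direction under all 14 alternatives and its call under 13. Leaving out 1 array gave 237 to 2252 changed genes against 950, 1 to 2 acetyltransferase genes against 2, and 2 to 25 genes of the related lists against 9, with the highest counts of genes without negative control 3; a fit with fewer arrays also has less power. In those fits the KAT2B difference was 0.88 to 0.99 and that of CREBBP 0.38 to 0.43, with CREBBP missing the threshold without miR-130a 1. Median centring gave 520 changed genes and 4 of the lists, trend and robust options 1449 and 14, and testing all rows 448 and 2, where more rows were tested. Array weights, whose estimation stopped before it converged, gave 7658 changed genes, 4 acetyltransferase genes (KAT6A and HAT1 added) and 62 of the lists; the cause was not tested. KAT2A turned sign without negative control 3, without miR-130a 2 (-0.066 to 0.073 over the arrays left out), with median centring (0.0021) and with array weights (0.073). KLK2 (-0.029 to 0.075) and TMPRSS2 (-0.018 to 0.074) turned sign when an array was left out. Same-numbered arrays of the arms did not deviate together (r = -0.03, -0.01 and 0.04 over all rows). Whether they came from the same experiment cannot be decided from this, because scatter of single arrays could hide a shared deviation. A replicate block gave 818 changed genes, 2 acetyltransferase genes and 8 of the lists. Under that block USP22 (adjusted p = 0.0526), CITED2 (0.0830) and ACLY (0.0785) no longer passed, and CITED4 (0.0144) and ING3 (0.0239) did. KAT2B minus KAT2A stayed between 0.81 and 1.05 and KAT6A minus KAT6B between 0.02 and 0.06 with 1 array left out. Detection calls were not used here, so background was judged from levels alone.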
